A study of Mus musculus with 2 samples.

Results

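Macrophage_2 was 1 of 4 numbered macrophage clusters among the 30 cell clusters that the authors named in tumours of mice given an antibody against SIGLEC15 or control IgG. Its members are the cells that carry this name in the deposited cell lists, 158 of 5482 cells in the antibody library and 89 of 5765 cells in the IgG library. The tumours were subcutaneous grafts of Hep1-6, a mouse hepatoma line, in wild-type C57BL/6 males of 6 to 8 weeks. The agents were injected intraperitoneally, 3 mice per group, and each group gave 1 library, made from CD45 bead-enriched and unsorted cells at equal parts. SIGLEC15, a lectin that binds sialic acids, is studied as an immune checkpoint, and Siglec15 itself was not analysed here. All genes were read in the antibody library, where Macrophage_2 was set against Macrophage_1 (178 cells), Macrophage_3 (91 cells), Macrophage_4 (105 cells) and the cluster named DC (208 cells). Only 105 genes could be compared with the IgG library.

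Macrophages take up dead cells and debris, break them down in lysosomes, and present peptides to T cells. In tumours most derive from blood monocytes, and part of them can divide in place. C1q, the first component of complement, the growth factor receptor Csf1r and the surface protein Adgre1 (F4/80) are much-used markers of mouse macrophages. A dividing cell copies its DNA with a set of replication enzymes, wraps the copy in newly made histones, and then builds a spindle, and the genes for each step are transcribed at their own time in the cycle. T cells, cytotoxic ones among them, are recognised by their antigen receptor, which is displayed with the Cd3 proteins.

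Levels are given in CPM, the UMIs of a gene summed over the cells of a cluster, divided by all UMIs of these cells and scaled to a common total. A UMI stands for 1 captured transcript. A ratio is followed by its exact 95% interval in parentheses. With 1 library per group and with clusters that the same genes defined, no test was made. Intervals cover counting error only, as if each UMI were drawn independently. Genes were compared where both sides together held at least 50 UMIs and 1 side had at least 50 CPM. Of 3200 genes compared between Macrophage_2 and the other 3 macrophage clusters summed, 212 (6.62%) were at least 2-fold higher and 112 (3.5%) at least 2-fold lower, and the median log2 ratio over all of them was 0.08. Counts for gene lists below are to be read against these shares.

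The macrophage markers were present in Macrophage_2, at lower levels than in Macrophage_1 and Macrophage_3. C1qb, a C1q chain, had 1848 CPM in Macrophage_2, against 3125 CPM in Macrophage_1, 2998 CPM in Macrophage_3, 1118 CPM in Macrophage_4 and 699.8 CPM in the DC cluster. Its ratio to the other macrophages was 0.623 (0.597 to 0.650). Csf1r had 228 CPM in Macrophage_2, against 440.1 CPM in Macrophage_1, 438 CPM in Macrophage_3, 90.7 CPM in Macrophage_4 and 244 CPM in the DC cluster, and Adgre1 had 74.3 CPM in Macrophage_2, against 108 CPM in Macrophage_1, 238 CPM in Macrophage_3, 37.8 CPM in Macrophage_4 and 55.0 CPM in the DC cluster. Both were highest in Macrophage_1 or Macrophage_3 and lowest in Macrophage_4. For Csf1r the ratio to the other macrophages was 0.545 (0.483 to 0.614), and for Adgre1 it was 0.531 (0.429 to 0.654). Part of the Macrophage_2 cells held T cell receptor transcripts, as described below. With such cells left out on both sides, the ratio was 0.810 (0.767 to 0.854) for C1qb. It was then 0.587 (0.496 to 0.692) for Csf1r and 0.634 (0.467 to 0.847) for Adgre1. Over the list of 10 macrophage markers, of 10 genes compared, 0 were at least 2-fold higher and 1 at least 2-fold lower, with a median log2 ratio of -0.82. Their summed level was 9688 CPM in Macrophage_2, against 16979, 20162 and 6400.3 CPM in Macrophage_1, Macrophage_3 and Macrophage_4 and 3876 CPM in the DC cluster. Cd68, a lysosomal glycoprotein used as a pan-macrophage marker, had 337 CPM in Macrophage_2, against 565 CPM in Macrophage_1, 649.9 CPM in Macrophage_3 and 355 CPM in Macrophage_4, and the mannose receptor Mrc1 had 171 CPM in Macrophage_2, against 183 CPM in Macrophage_1, 783 CPM in Macrophage_3 and 219 CPM in Macrophage_4. The 10 genes that stood highest in Macrophage_2 over all other cells of the library were Gbp2b, Slamf8, Gatm, Adamdec1, Mgl2, Ly86, Grk3, Dnase1l3, Wdfy4 and H2-DMb2, and 0 of them was on a cell type marker list. Against the other macrophages, the 10 highest ratios were those of 5 histone genes, the chromosome segregation gene Knl1, and Ifng, Ccl1, Klrc1 and Xcl1, which T and natural killer cells are known to transcribe. The macrophage markers were thus present under the deposited name, while 0 of these 10 genes was on the macrophage list, so the name is used below as a label.

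Macrophage_2 cells were the deepest of the macrophage clusters, with a median of 10587.5 UMIs (2552 to 26231) and 3155.5 genes per cell in the antibody library. The medians were 7870.5 UMIs in Macrophage_1, 5380 in Macrophage_3, 1053 in Macrophage_4 and 3796 in the DC cluster. Mitochondrial genes took a median of 4.16% of UMIs in Macrophage_2, within the range of 2.31% to 4.62% in the other 3 macrophage clusters. The 2 libraries shared 11 cell barcodes, and 0 of these was a Macrophage_2 cell. A doublet caller marked 3 of 5482 cells (0.0547%) and 0 in Macrophage_2, a rate at which it has not worked, so no cell was removed. Its median score was 0.0600 in Macrophage_2, against 0.0252 in Macrophage_1, 0.0494 in Macrophage_3, 0.0494 in Macrophage_4 and 0.0356 in the DC cluster. Macrophage_2 had the highest of the 5, but with calls that have not worked the scores are a description only.

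The promoters of 3 genes from the groups that follow are shown here, each 250 bases before to 50 after the start site from RefSeq on GRCm38.p6. Hist1h1b (RefSeq symbol H1f5), a linker histone, lies at chr13:21780576-21780875 on the minus strand, and Top2a, which untangles replicated DNA, at chr11:99024140-99024439 on the minus strand. Ccl1, a chemokine gene of activated T cells, lies at chr11:82179763-82180062 on the minus strand. It is shown as an example from the T cell genes and is not typical of them, since few cells held most of its UMIs, as given below. Capitals mark matches, on either strand, of the CCAAT motif, of TTTGAA (the cell cycle genes homology region) and of the TATA box letters, TATAAA.
Hist1h1b: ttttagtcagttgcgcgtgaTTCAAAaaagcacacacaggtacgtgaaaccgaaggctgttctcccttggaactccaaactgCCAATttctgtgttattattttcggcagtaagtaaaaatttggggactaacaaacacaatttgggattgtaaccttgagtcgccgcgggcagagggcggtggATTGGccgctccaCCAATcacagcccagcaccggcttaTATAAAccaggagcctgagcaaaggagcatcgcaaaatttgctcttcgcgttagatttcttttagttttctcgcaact
Top2a: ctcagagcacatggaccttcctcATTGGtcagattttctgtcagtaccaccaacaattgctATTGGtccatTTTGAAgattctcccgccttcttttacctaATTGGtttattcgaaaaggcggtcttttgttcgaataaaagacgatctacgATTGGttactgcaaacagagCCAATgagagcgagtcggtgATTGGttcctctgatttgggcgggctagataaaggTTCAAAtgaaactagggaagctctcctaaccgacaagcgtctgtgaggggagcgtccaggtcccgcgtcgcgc
Ccl1: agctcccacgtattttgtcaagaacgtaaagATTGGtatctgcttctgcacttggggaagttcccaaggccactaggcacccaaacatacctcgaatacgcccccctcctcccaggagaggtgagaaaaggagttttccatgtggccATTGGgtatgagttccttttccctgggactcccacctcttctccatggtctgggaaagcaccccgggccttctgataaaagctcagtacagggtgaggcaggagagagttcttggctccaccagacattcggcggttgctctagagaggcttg
The Hist1h1b window held 3 CCAAT, 1 TTTGAA and 1 TATAAA, the Top2a window 6, 2 and 0, and the Ccl1 window 2, 0 and 0. Of all 27025 promoters of this length, 37.9% held CCAAT, 18.1% held TTTGAA and 14.2% held TATAAA. Among the 22 mitosis genes with a promoter in the table, 19 held CCAAT, 14 held TTTGAA and 1 held TATAAA. Among 10 of the 12 histone genes named as higher below, 10 held CCAAT, 6 held TTTGAA and 7 held TATAAA. Among 19 replication genes the numbers were 11, 2 and 1. These are matches of letters only.

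Genes of cell division were higher in Macrophage_2 than in the other macrophages. On the list of mitosis genes, of 22 genes compared, 21 were at least 2-fold higher and 0 at least 2-fold lower, with a median log2 ratio of 2.50. On the list of replication genes, of 14 genes compared, 12 were at least 2-fold higher and 0 at least 2-fold lower, with a median log2 ratio of 1.43. Of 63 histone genes present, 14 were compared, and 12 of these were at least 2-fold higher and 0 lower, with a median log2 ratio of 3.62. Of the 124 genes (4.18% of 2966) that were at least 2-fold higher than in each of the 3 clusters, 12 were histone genes, 22 were on the replication or mitosis list and 9 were on the T or natural killer cell marker lists. These 12 include the variant histone genes H2afv and H2afx, which are not among the 63, so they are not the same 12 as before. In the opposite direction stood 3 genes (0.101%), namely Anxa1, Ccl9 and Cd36.

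Among genes of DNA replication, Mcm5 and Mcm7 code for parts of the helicase that opens the double strand. Mcm7 had 117 CPM in Macrophage_2, against 45.7 CPM in Macrophage_1, 48.7 CPM in Macrophage_3 and 52.9 CPM in Macrophage_4, and its ratio to the 3 clusters summed was 2.49 (1.96 to 3.20). Rrm1 and Rrm2 code for the enzyme that makes deoxyribonucleotides. Rrm2 had 82.3 CPM in Macrophage_2, against 12.7 CPM in Macrophage_1, 20.2 CPM in Macrophage_3 and 75.6 CPM in Macrophage_4, so that Macrophage_4 lay close to Macrophage_2 and the other clusters well below, with a summed ratio of 4.42 (3.10 to 6.45). Lig1, the ligase that joins newly made fragments, had 118 CPM in Macrophage_2, against 23.9 CPM in Macrophage_1, 58.8 CPM in Macrophage_3 and 7.56 CPM in Macrophage_4 and a ratio of 3.62 (2.74 to 4.81). Pcna, the sliding clamp of the polymerase, did not reach 2-fold, with 211 CPM in Macrophage_2, against 124 CPM in Macrophage_1, 133 CPM in Macrophage_3 and 181 CPM in Macrophage_4 and a ratio of 1.62 (1.39 to 1.90). Mcm3 also stayed below 2-fold at 1.94 (1.55 to 2.43). These were the 2 of the 14 replication genes compared that did so.

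Histone genes were among those with the highest ratios. Hist1h1b, chromosome 13 from 21779883 to 21780625, had 615 CPM in Macrophage_2, against 19.7 CPM in Macrophage_1, 73.9 CPM in Macrophage_3, 189 CPM in Macrophage_4 and 46.4 CPM in the DC cluster. Its ratio to the other macrophages was 13.6 (11.1 to 17.0), and Macrophage_4 was the nearest of the other 4 clusters. Hist1h3c, a core histone H3 gene, had 180.0 CPM in Macrophage_2, against 6.33 CPM in Macrophage_1, 16.8 CPM in Macrophage_3 and 15.1 CPM in Macrophage_4 and a ratio of 18.4 (11.8 to 30.2). Hist1h2ap, a core histone H2A gene, had 460.0 CPM in Macrophage_2, against 16.2 CPM in Macrophage_1, 53.7 CPM in Macrophage_3 and 60.5 CPM in Macrophage_4 and a ratio of 15.7 (12.1 to 20.6). Over the 14 genes compared, the ratio ran between 0.789 and 28.0. Positions were looked up only for genes named by rule and for the shared genes. Of the 12 that were higher, the 7 so looked up lie on chromosome 13 between 21779883 and 23751598, and the others were not looked up. Copies of histone genes are near-identical, so reads may be split among them and single values are uncertain. Most replication-dependent histone transcripts carry no poly(A) tail, which 3' libraries prime on, so these levels are not those of all histone transcripts.

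Among genes of mitosis, Top2a, chromosome 11 from 98992943 to 99024189, had 539 CPM in Macrophage_2, against 42.9 CPM in Macrophage_1, 90.7 CPM in Macrophage_3, 151 CPM in Macrophage_4 and 38.8 CPM in the DC cluster. The ratio to the other macrophages was 8.58 (7.16 to 10.4). Mki67, which coats mitotic chromosomes and is a standard mark of dividing cells, had 392 CPM in Macrophage_2, against 38.0 CPM in Macrophage_1, 78.9 CPM in Macrophage_3, 204 CPM in Macrophage_4 and 48.5 CPM in the DC cluster. Its ratio was 6.58 (5.44 to 8.02). Macrophage_4 came second among the macrophage clusters for both genes. Cenpf, a kinetochore protein, had 183 CPM in Macrophage_2, against 12.0 CPM in Macrophage_1, 16.8 CPM in Macrophage_3 and 22.7 CPM in Macrophage_4, a ratio of 13.1 (9.0013 to 19.7). Nusap1, a spindle protein, had 148 CPM in Macrophage_2, against 5.62 CPM in Macrophage_1, 6.72 CPM in Macrophage_3 and 68.0 CPM in Macrophage_4, a ratio of 15.2 (9.71 to 24.9). Cyclin B1 (Ccnb1) and its kinase Cdk1, which drive entry into mitosis, had ratios of 6.93 (4.51 to 11.1) and 3.94 (2.96 to 5.31). Aurkb and Plk1, mitotic kinases, had ratios of 4.70 (3.07 to 7.40) and 7.32 (4.68 to 11.9). CD8_T_1, a CD8 T cell cluster, held more of each of the 8 mitosis genes named here and of the 3 histone genes above, for example 559 CPM of Mki67 and 1881 CPM of Hist1h1b.

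Transcripts of division were found in nearly every Macrophage_2 cell. Summed over the replication and mitosis lists, a Macrophage_2 cell held a median of 53.7 UMIs per 10000 (quartiles 39.0 and 67.1), against 7.77 in Macrophage_1, 7.57 in Macrophage_3, 14.9 in Macrophage_4, 5.70 in the DC cluster and 93.6 in CD8_T_1. The lower quartile of Macrophage_2 lay above the upper quartiles of Macrophage_1 (14.4), Macrophage_3 (16.8) and the DC cluster (10.7), and below that of Macrophage_4 (44.2). At least 5 such UMIs were counted in 156 of 158 Macrophage_2 cells, against 108 of 178 in Macrophage_1, 44 of 91 in Macrophage_3, 22 of 105 in Macrophage_4 and 60 of 208 in the DC cluster. Depth differs between these clusters, so each cell was also thinned to 1000 UMIs. Top2a was then found in 39.7% of Macrophage_2 cells (87.3% unthinned), against 4.03% (19.7%) in Macrophage_1, 5.74% (22.0%) in Macrophage_3 and 12.5% (13.3%) in Macrophage_4. Thinning left out 47 Macrophage_4 cells, 3 Macrophage_3 cells and 0 cells of the other 2 clusters. Among Macrophage_2 cells, the sum had a Spearman correlation of -0.10 with depth.

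**Figure D1:**
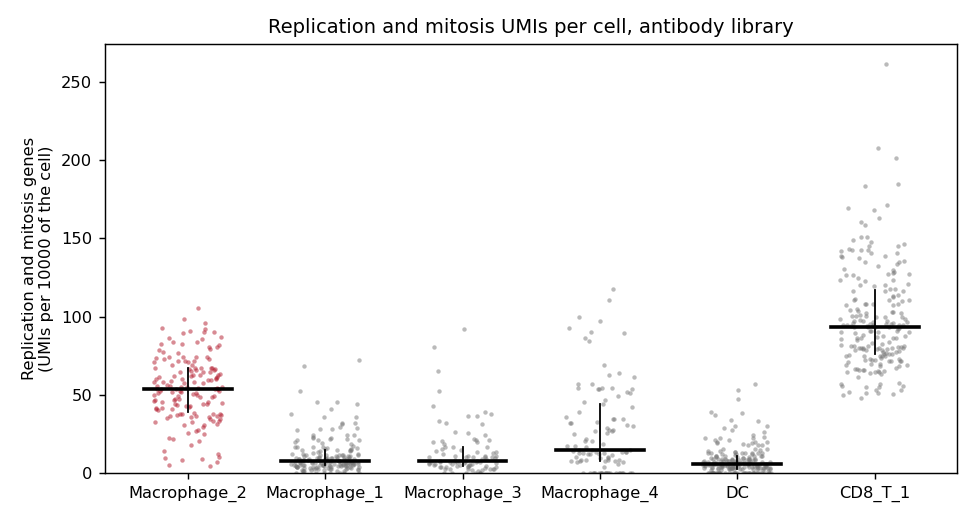
UMIs of replication and mitosis genes per 10000 UMIs of a cell in 6 clusters of the antibody library, each point a cell, with a wide bar at the median and a line from the lower to the upper quartile. Macrophage_2 has a median of 53.7, above the other macrophage clusters and the DC cluster and below CD8_T_1 at 93.6.

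T cell genes formed the second group that was higher. On the T cell marker list, of 9 genes compared, 8 were at least 2-fold higher and 1 at least 2-fold lower, with a median log2 ratio of 2.81. The lower one was Il7r, the receptor for interleukin 7, with 28.0 CPM in Macrophage_2, against 75.9 CPM in Macrophage_1, 45.3 CPM in Macrophage_3 and 75.6 CPM in Macrophage_4. On the natural killer cell list, of 4 genes compared, 4 were at least 2-fold higher and 0 at least 2-fold lower, with a median log2 ratio of 2.97. Trbc2, the constant part of the receptor's beta chain, whose reads may be shared with the near-identical Trbc1, had 502 CPM in Macrophage_2, against 25.3 CPM in Macrophage_1, 136 CPM in Macrophage_3, 52.9 CPM in Macrophage_4 and 67.9 CPM in the DC cluster. Its ratio to the other macrophages was 8.71 (7.21 to 10.6), and the CD8_T_1 cluster held 1543 CPM. Cd3d, which belongs to the receptor's signalling complex, had 190.3 CPM in Macrophage_2, against 9.14 CPM in Macrophage_1, 67.2 CPM in Macrophage_3 and 15.1 CPM in Macrophage_4, a ratio of 7.44 (5.58 to 10.1). Cd8a, the co-receptor of cytotoxic T cells, had 108 CPM in Macrophage_2, against 8.44 CPM in Macrophage_1, 35.3 CPM in Macrophage_3 and 15.1 CPM in Macrophage_4, a ratio of 6.63 (4.61 to 9.81). Macrophage_3 came second for each of these 3 genes, though the Cd3d and Cd8a levels of Macrophage_4 are under that of 3 counts over Macrophage_4 (22.7 CPM). The only gene compared on the fibroblast list was Thy1, which T cells also carry, with a ratio of 7.52 (5.41 to 10.7).

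The effector genes of T and natural killer cells followed. Ifng, the gene of interferon gamma, had 157 CPM in Macrophage_2, against 0.703 CPM in Macrophage_1, 21.8 CPM in Macrophage_3 and 7.56 CPM in Macrophage_4, a ratio of 22.4 (13.4 to 40.7). Nkg7, a protein of cytotoxic granules, had 371 CPM in Macrophage_2, against 19.7 CPM in Macrophage_1, 126 CPM in Macrophage_3 and 45.3 CPM in Macrophage_4, a ratio of 7.32 (5.96 to 9.05). Xcl1, a chemokine that attracts cross-presenting dendritic cells, had 97.7 CPM in Macrophage_2, against 1.41 CPM in Macrophage_1, 16.8 CPM in Macrophage_3 and 7.56 CPM in Macrophage_4, a ratio of 16.2 (9.20 to 31.0). Macrophage_1 had the lowest value of the 4 macrophage clusters for all 3. The Ifng and Xcl1 levels of Macrophage_4 are under that of 3 counts over this cluster (22.7 CPM), so they do not order Macrophage_4 and Macrophage_1. Prf1 (perforin) and the chemokine gene Ccl1 had 0 UMIs in Macrophage_1, which puts Macrophage_2 at least 26.8-fold and at least 132-fold higher, with a floor of 3 counts over the 178 cells. Without cells with at least 3 UMIs of the T cell receptor complex, described next, 1 UMI of Ccl1 and 0 of Xcl1 remained in Macrophage_2, and the Ccl1 ratio was 0.224 (0.00524 to 1.51).

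These transcripts were not spread evenly over Macrophage_2. UMIs of Cd3d, Cd3e, Cd3g, Trac and Trbc2 were summed in each cell as the T cell receptor complex, and the range of at least 3 UMIs was set after the values were seen. Of 158 cells, 88 (55.7%) held at least 3 of these UMIs, 65 (41.1%) held 0 and 5 held 1 or 2. Few cells lay near the cut, since 5 held 3 to 5 UMIs and 74 held at least 10. The median depth was 11465.5 UMIs and 3397.5 genes in the cells with at least 3, and 9450 UMIs and 2869 genes in the cells with 0. The doublet score, a description only as said above, had a median of 0.0740 in the cells with at least 3 and 0.0369 in the cells with 0.

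Most cells with receptor transcripts also held C1q transcripts. At least 3 UMIs of both the receptor complex and C1qa, C1qb and C1qc were counted in 83 of 158 Macrophage_2 cells (52.5%, 44.4% to 60.5%). The same was seen in 8 of 178 Macrophage_1 cells (4.49%), 17 of 91 Macrophage_3 cells (18.7%), 1 of 105 Macrophage_4 cells (0.952%), 12 of 208 DC cells (5.77%) and 12 of 208 CD8_T_1 cells (5.77%). It was seen in 0 of 412 cells of Tumor_3, a hepatoma cluster, which allows a share of up to 0.891% by the exact interval. With each cell thinned to 1000 UMIs, at least 1 UMI of both sets was found in 39.4% of Macrophage_2 cells, against 3.55% in Macrophage_1, 15.2% in Macrophage_3, 7.22% in Macrophage_4, 3.73% in the DC cluster and 6.31% in CD8_T_1. Macrophage_2 thus stood highest and Macrophage_3 second with and without thinning. A UMI of the receptor complex was found after thinning in 45.8% of Macrophage_2 cells and 0.404% of Tumor_3 cells (58.9% and 6.80% unthinned). Tumor_3 should lack these genes, and its median depth was 20662.5 UMIs. Whether such cells were single cells or droplets with more than 1 cell was not tested.

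**Figure D2:**
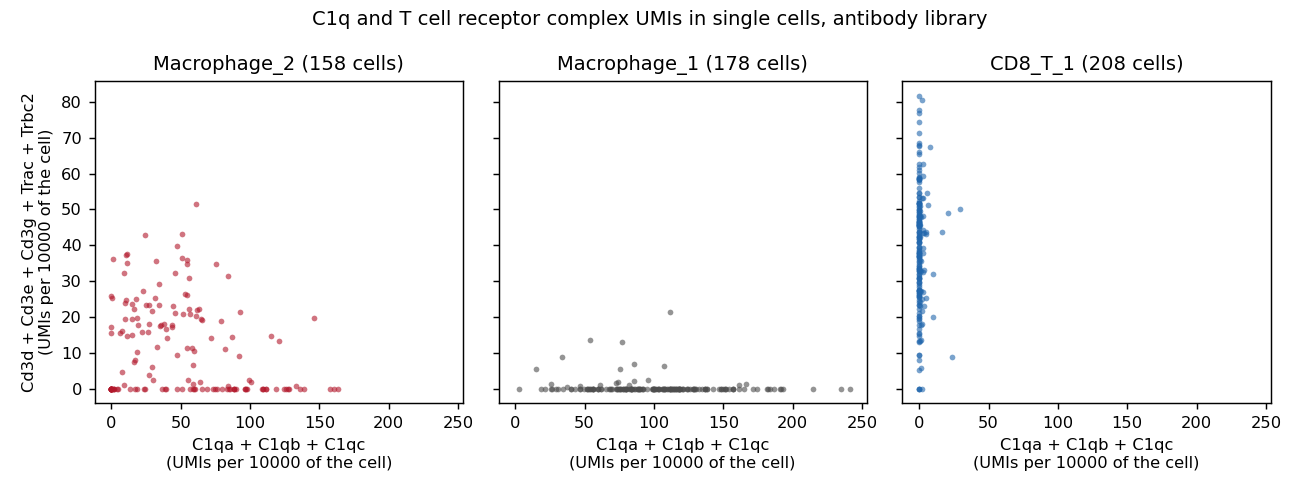
C1q UMIs (horizontal) and T cell receptor complex UMIs (vertical) per 10000 UMIs of a cell in Macrophage_2, Macrophage_1 and CD8_T_1 of the antibody library, each point a cell. Macrophage_2 cells spread over both axes, with 83 of 158 holding at least 3 UMIs of each set, while most Macrophage_1 cells lie along the horizontal axis and most CD8_T_1 cells along the vertical one.

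In the 88 Macrophage_2 cells with receptor transcripts, 30 T cell genes were set against CD8_T_1. The set is not one of the marker lists. It includes Penk, Nrgn and Igfbp7, which are on neither the T cell nor the natural killer cell list. Lag3 and Havcr2, also in it, were found in cells with 0 receptor UMIs too. Over the 30 genes the median ratio of CPM was 0.610, and the 5 genes of the receptor complex, which define the range, lay between 0.499 and 0.650. Cd8a and Cd8b1, outside that sum, had ratios of 0.573 (0.481 to 0.681) and 0.540 (0.457 to 0.636), within the span of the receptor genes. Prf1 was lowest at 0.394 (0.312 to 0.494). Of the 30 genes, Ccl1, Penk and Ccl5 lay above 1 with their whole interval. Ccl1 had 468 CPM in these cells, against 259 CPM in CD8_T_1, a ratio of 1.81 (1.58 to 2.07). Penk, which codes for proenkephalin, had a ratio of 1.77 (1.33 to 2.36) and Ccl5 one of 1.21 (1.09 to 1.35). The UMIs of Penk came from 13 Macrophage_2 cells. Against CD8_T_2, a second CD8 T cell cluster, the ratios were 3.60 (2.69 to 4.90) for Ccl1, 10.4 (3.96 to 39.0) for Penk and 0.147 (0.134 to 0.161) for Ccl5, so that Ccl5 lay below CD8_T_2. The Ccl1 level came from few cells, since 18 Macrophage_2 cells held its 489 UMIs and 5 of them held 77.9%. Of these 18 cells, 17 held at least 3 receptor complex UMIs. In the T cell clusters, Ccl1 had 1003 UMIs in 87 of 520 cells.

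**Figure D3:**
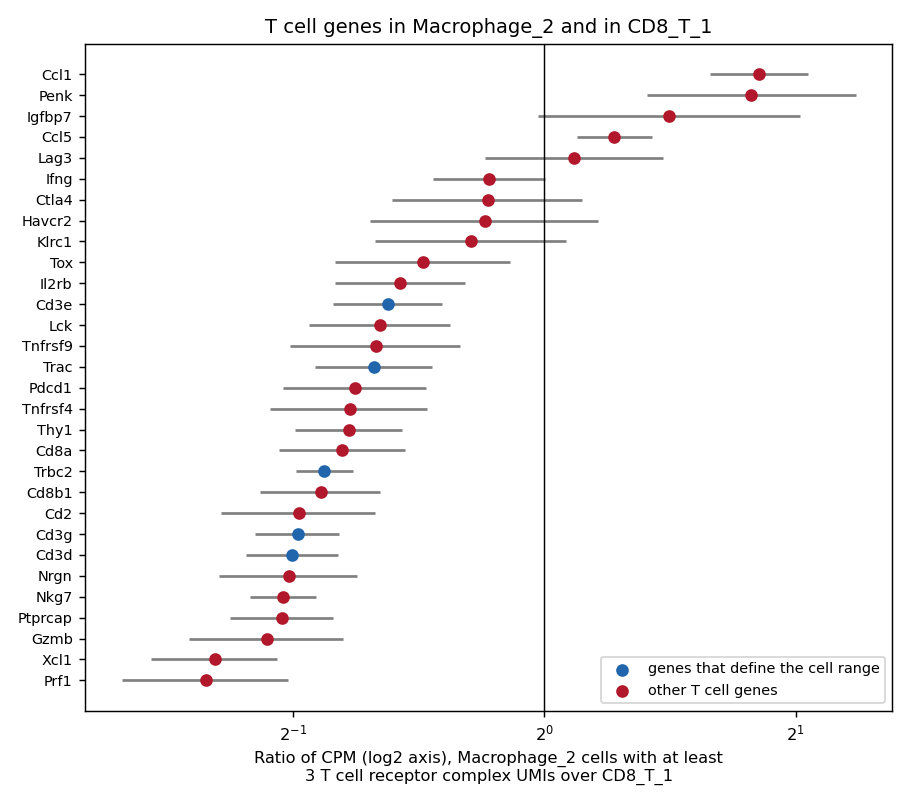
Ratio of CPM, on a log2 axis, of 30 T cell genes in the 88 Macrophage_2 cells with at least 3 T cell receptor complex UMIs over CD8_T_1, with exact 95% intervals as lines and the 5 genes that define the cell range in blue. Most genes lie below 1, around the median of 0.610, and Ccl1, Penk and Ccl5 lie above 1 with their whole interval.

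Cells with and without receptor transcripts differed in myeloid genes too. Arginase 1 (Arg1), an enzyme of alternatively activated macrophages, had 361 CPM in the 88 cells with at least 3 receptor UMIs and 45.0 CPM in the 65 cells with 0, a ratio of 8.01 (5.48 to 12.1). S100a9, an abundant protein of neutrophils and monocytes, had 880.3 CPM in the 88 cells and 76.1 CPM in the 65, a ratio of 11.6 (8.68 to 15.8). The monocyte gene Ly6c2, whose reads may be shared with the near-identical Ly6c1, had 86.3 CPM in the 88 cells and 4.66 CPM in the 65. Haem oxygenase (Hmox1) had 648 CPM in the 88 cells and 180.1 CPM in the 65, and Trem2, a lipid-sensing receptor, had 90.1 CPM in the 88 cells and 15.5 CPM in the 65. All 5 were higher in the cells with receptor transcripts. In the other direction, Cst3 (cystatin C, abundant in dendritic cells) had 1037 CPM in the 88 cells and 4226 CPM in the 65, a ratio of 0.245 (0.228 to 0.263). Of the 65, 16 cells described below held 1732 of the 2722 Cst3 UMIs, and the other 49 had 1925 CPM. Cxcl9, a chemokine induced by interferon gamma, had 635 CPM in the 88 cells and 1771 CPM in the 65, a ratio of 0.358 (0.325 to 0.395). The MHC class II chain H2-Aa had 2513 CPM in the 88 cells and 5078 CPM in the 65, and C1qa had 1793 CPM in the 88 cells and 2732 CPM in the 65. Neutrophil markers summed to 1779 CPM in the cells with receptor transcripts and 299.6 CPM in those with 0, and the part of myeloid cells of other clusters in these differences was not tested.

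The transcripts of division were present on both sides of this split. The replication and mitosis sum had a median of 49.4 UMIs per 10000 in the cells with at least 3 receptor UMIs and 60.3 in the cells with 0, with lower quartiles of 32.6 in the 88 cells and 48.8 in the 65. The lowest of the 65 cells with 0 held 33.1. Top2a had 445 CPM in the 88 cells and 671 CPM in the 65, and Hist1h1b had 609.9 CPM in the 88 cells and 612 CPM in the 65. When cells with at least 3 receptor UMIs were left out of Macrophage_2 and of the other macrophages, 70 and 348 cells remained. Over all 3163 genes then compared, 208 were at least 2-fold higher and 151 at least 2-fold lower. List counts without these cells are to be read against these numbers. Of 23 mitosis genes then compared 22 were at least 2-fold higher, with a median log2 ratio of 2.94, and of 11 replication genes 9 were, with a median of 1.73. Top2a then had a ratio of 12.3 (9.91 to 15.3), Cenpf of 24.1 (15.3 to 39.8) and Hist1h1b of 20.8 (15.8 to 27.9). Each was wider than with all cells. Among T cell markers, 1 gene could still be compared, Il7r, and it was lower.

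The 65 cells without receptor transcripts were themselves mixed. Of these, 49 held at least 3 C1q UMIs and 16 held fewer. In the 16 cells, Cst3 reached 13336 CPM, against 1925 CPM in the 49 and 4575 CPM in the DC cluster. Xcr1, the receptor for Xcl1 on cross-presenting dendritic cells, had 123 CPM with a UMI in 7 of the 16 cells, against 11.7 CPM in the 49 and 8.63 CPM in the DC cluster. Itgae (CD103) had 108 CPM with a UMI in 8 of the 16, against 13.6 CPM in the 49. Both genes are on the dendritic cell marker list, and both were higher in the 16 cells than in the 49. Some other markers of that list were level or lower in the 16. Clec9a had 46.2 CPM in the 16 cells, from 6 UMIs, and 42.8 CPM in the 49. Batf3 had 139 CPM in the 16 and 163 CPM in the 49. Fscn1 had 7.70 CPM in the 16, from 1 UMI, and 15.6 CPM in the 49, from 8 UMIs in 1 cell. Zbtb46 and Flt3, also on that list, were higher in the 16, but on only 3 and 2 UMIs there. Zbtb46 had 23.1 CPM in the 16 and 5.83 CPM in the 49, and Flt3 had 15.4 CPM in the 16 and 0 CPM in the 49. Cd209a, a lectin of conventional dendritic cells, had 13 UMIs in 2 of the 16 cells and 0 in the 49. The protease gene Napsa had 585 CPM in the 16 cells and 42.8 CPM in the 49. Csf1r ran the other way with 23.1 CPM in the 16 cells and 292 CPM in the 49. Top2a was present in both, with 939 CPM in the 16 cells and 603 CPM in the 49. These ranges, Cst3 and Napsa were chosen after their values were seen.

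Part of the genes of several macrophage functions were lower in Macrophage_2 than in the other macrophages summed, of which Macrophage_4 gave only 132337 UMIs. Set against Macrophage_4 alone, the summed list levels were higher for lysosome genes (15321 CPM in Macrophage_2, 13254 CPM in Macrophage_4), phagocytosis receptors (3299 CPM in Macrophage_2, 2562 CPM in Macrophage_4) and complement (6270.2 CPM in Macrophage_2, 4133 CPM in Macrophage_4). On the lysosome and cathepsin list, of 21 genes compared, 0 were at least 2-fold higher and 7 at least 2-fold lower, with a median log2 ratio of -0.80. Cathepsin L (Ctsl) had 222 CPM in Macrophage_2, against 768 CPM in Macrophage_1, 771 CPM in Macrophage_3 and 287 CPM in Macrophage_4, a ratio of 0.300 (0.268 to 0.335), and cathepsin B (Ctsb) had 1933 CPM in Macrophage_2, against 4409 CPM in Macrophage_1, 4417 CPM in Macrophage_3 and 1882 CPM in Macrophage_4, a ratio of 0.454 (0.437 to 0.473). Both proteases were lower than in Macrophage_1 and Macrophage_3, and near the level of Macrophage_4. On the list of lipid-associated genes, of 18 genes compared, 0 were at least 2-fold higher and 8 at least 2-fold lower, with a median log2 ratio of -0.99. Gpnmb, a glycoprotein of lipid-laden macrophages, had 25.7 CPM in Macrophage_2, against 248 CPM in Macrophage_1, 169.6 CPM in Macrophage_3 and 15.1 CPM in Macrophage_4, a ratio of 0.121 (0.0872 to 0.165). The Macrophage_4 level is under that of 3 counts over this cluster (22.7 CPM), so it does not order Macrophage_4 and Macrophage_2. Spp1 (osteopontin) had 60.0 CPM in Macrophage_2, against 217 CPM in Macrophage_1, 378 CPM in Macrophage_3 and 90.7 CPM in Macrophage_4, a ratio of 0.237 (0.190 to 0.292). Trem2 had a ratio of 0.446 (0.354 to 0.560), and Lpl (lipoprotein lipase) one of 0.436 (0.405 to 0.469). Apoe, an apolipoprotein that macrophages secrete, stayed within 2-fold at 0.526 (0.509 to 0.544).

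Uptake and matrix genes had the same direction. On the list of phagocytosis and efferocytosis receptors, of 18 genes compared, 0 were at least 2-fold higher and 7 at least 2-fold lower, with a median log2 ratio of -0.71. Mfge8, which links dying cells to phagocytes, had 31.997 CPM in Macrophage_2, against 262 CPM in Macrophage_1, 25.2 CPM in Macrophage_3 and 68.0 CPM in Macrophage_4, a ratio of 0.174 (0.129 to 0.230), so that Macrophage_1 lay far above and Macrophage_3 below. Mertk, a receptor kinase for dying cells, had a ratio of 0.427 (0.323 to 0.560), and its ligand Gas6 one of 0.262 (0.190 to 0.356). On the matrix remodelling list, of 9 genes compared, 0 were at least 2-fold higher and 5 at least 2-fold lower, with a median log2 ratio of -1.14. Mmp12, the macrophage elastase, had 1056 CPM in Macrophage_2, against 3457 CPM in Macrophage_1, 667 CPM in Macrophage_3 and 2856 CPM in Macrophage_4, a ratio of 0.399 (0.378 to 0.421), so that Macrophage_3 lay below Macrophage_2 while Macrophage_1 and Macrophage_4 lay above. Timp2, an inhibitor of metalloproteinases, had a ratio of 0.325 (0.279 to 0.377). On the complement list, of 11 genes compared, 0 were at least 2-fold higher and 3 at least 2-fold lower, with a median log2 ratio of -0.83, and on the iron and haem list, of 9 genes compared, 0 were at least 2-fold higher and 3 at least 2-fold lower, with a median log2 ratio of -0.84. Of 3 Kupffer cell markers compared, 2 were at least 2-fold lower, among them the iron exporter gene Slc40a1 at 0.442 (0.378 to 0.516).

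Part of the alternative activation genes and of the chemokines were lower as well. For alternative activation, of 13 genes compared, 0 were at least 2-fold higher and 4 at least 2-fold lower, with a median log2 ratio of -0.73. Retnla, a secreted product of alternatively activated mouse macrophages, had 38.9 CPM in Macrophage_2, against 71.0 CPM in Macrophage_1, 1474 CPM in Macrophage_3 and 128 CPM in Macrophage_4, a ratio of 0.0839 (0.0646 to 0.107). Macrophage_3 was by far the highest, and the ratio to Macrophage_1 alone was 0.547 (0.396 to 0.752). Cd209f, a lectin, had 0 UMIs in Macrophage_2 and was at least 33.6-fold lower, with a floor of 3 counts over the cluster. This gene is on the lists for alternative activation and phagocytosis, where it stays at the low end at its bound, so their medians stand. Of 15 chemokine genes compared, 1 was at least 2-fold higher and 6 at least 2-fold lower, with a median log2 ratio of -0.64. The higher one was Ccl5, which T cells also make, with 446 CPM in Macrophage_2, against 138 CPM in Macrophage_1, 324 CPM in Macrophage_3 and 309.8 CPM in Macrophage_4 and a ratio of 2.23 (1.98 to 2.51). Within Macrophage_2, Ccl5 had 657 CPM in the cells with receptor transcripts and 76.1 CPM in the cells with 0. Ccl9, a chemokine of mouse myeloid cells, had 98.8 CPM in Macrophage_2, against 279 CPM in Macrophage_1, 831 CPM in Macrophage_3 and 264 CPM in Macrophage_4, a ratio of 0.229 (0.194 to 0.270). Ccl6 had a ratio of 0.277 (0.254 to 0.301), and Ccl8 one of 0.342 (0.316 to 0.369).

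Antigen presentation and interferon genes stayed within 2-fold of the other macrophages. For MHC class II presentation, of 10 genes compared, 0 were at least 2-fold higher and 0 at least 2-fold lower, with a median log2 ratio of -0.34. Its invariant chain Cd74 had 7151 CPM in Macrophage_2, against 11144 CPM in Macrophage_1, 5532 CPM in Macrophage_3 and 5690.0 CPM in Macrophage_4, a ratio of 0.773 (0.756 to 0.790). Without the cells with receptor transcripts, 1 of the 10 genes was at least 2-fold higher and the list median turned to 0.13. The Cd74 ratio then turned to 1.06 (1.03 to 1.08). For MHC class I presentation, of 11 genes compared, 0 were at least 2-fold higher and 0 at least 2-fold lower, with a median log2 ratio of 0.28. For interferon gamma targets, of 16 genes compared, 0 were at least 2-fold higher and 0 at least 2-fold lower, with a median log2 ratio of -0.04, and 0.21 without the cells with receptor transcripts. Cxcl10, one of these targets, had 318 CPM in Macrophage_2, against 274 CPM in Macrophage_1, 119 CPM in Macrophage_3 and 196 CPM in Macrophage_4, a ratio of 1.40 (1.24 to 1.59). The median of 19 hypoxia and glycolysis genes was -0.21 and that of 19 immediate early genes, which dissociation can raise, was -0.17, with 0 genes past 2-fold on either list. For type I interferon targets, of 5 genes compared, 0 were at least 2-fold higher and 0 at least 2-fold lower, with a median log2 ratio of -0.13. For antioxidant genes, of 16 genes compared, 0 were at least 2-fold higher and 3 at least 2-fold lower, with a median log2 ratio of -0.46, and for growth factors, of 6 genes compared, 0 were at least 2-fold higher and 1 at least 2-fold lower, with a median log2 ratio of -0.62, the lower one being Igf1 at 0.445 (0.375 to 0.526). Among 21 macrophage transcription factors, 0 were higher and 2 lower, with a median of -0.17. Spi1 (PU.1), which sets myeloid identity, had a ratio of 0.891 (0.806 to 0.985). Without the cells with receptor transcripts the Spi1 ratio was 1.19 (1.05 to 1.35), so its direction depended on these cells. On the osteoclast-like list, of 6 genes compared, 1 was at least 2-fold higher and 3 at least 2-fold lower, with a median log2 ratio of -0.85, and the higher one was Nfatc1 at 2.25 (1.66 to 3.09), with 92.1 CPM in the Macrophage_2 cells with receptor transcripts and 37.3 CPM in those with 0.

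Genes by which macrophages restrain or support T cells, the setting in which SIGLEC15 is studied, had no member past 2-fold with all cells. On the list of checkpoint and costimulatory ligands, of 11 genes compared, 0 were at least 2-fold higher and 0 at least 2-fold lower, with a median log2 ratio of -0.44. On the list of Siglec receptors and adaptors, of 3 genes compared, 0 were at least 2-fold higher and 0 at least 2-fold lower, with a median log2 ratio of 0.01. Among chemokine receptors and among proinflammatory cytokines and enzymes, of 4 and 6 genes compared 0 were past 2-fold, with medians of -0.58 and -0.22. Without cells with at least 3 receptor complex UMIs, 1 of 10 checkpoint and costimulatory ligands, 1 of 4 chemokine receptors and 2 of 6 proinflammatory genes were at least 2-fold lower. Over all genes compared without these cells, 151 of 3163 were at least 2-fold lower, and such small counts say little beside that. For monocyte markers, of 5 genes compared, 0 were at least 2-fold higher and 1 at least 2-fold lower, with a median log2 ratio of 0.46. Without cells with at least 3 receptor complex UMIs, the median of the 3 genes still compared was -0.77, with 1 at least 2-fold lower. Their summed level was 612 CPM in Macrophage_2, against 256 CPM in Macrophage_1, 1485 CPM in Macrophage_3 and 688 CPM in Macrophage_4, with Macrophage_3 highest and Macrophage_1 lowest. B cell, endothelial and mast cell markers were too low to compare, at 53.7, 48.0 and 10.3 CPM summed in Macrophage_2.

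**Figure D4:**
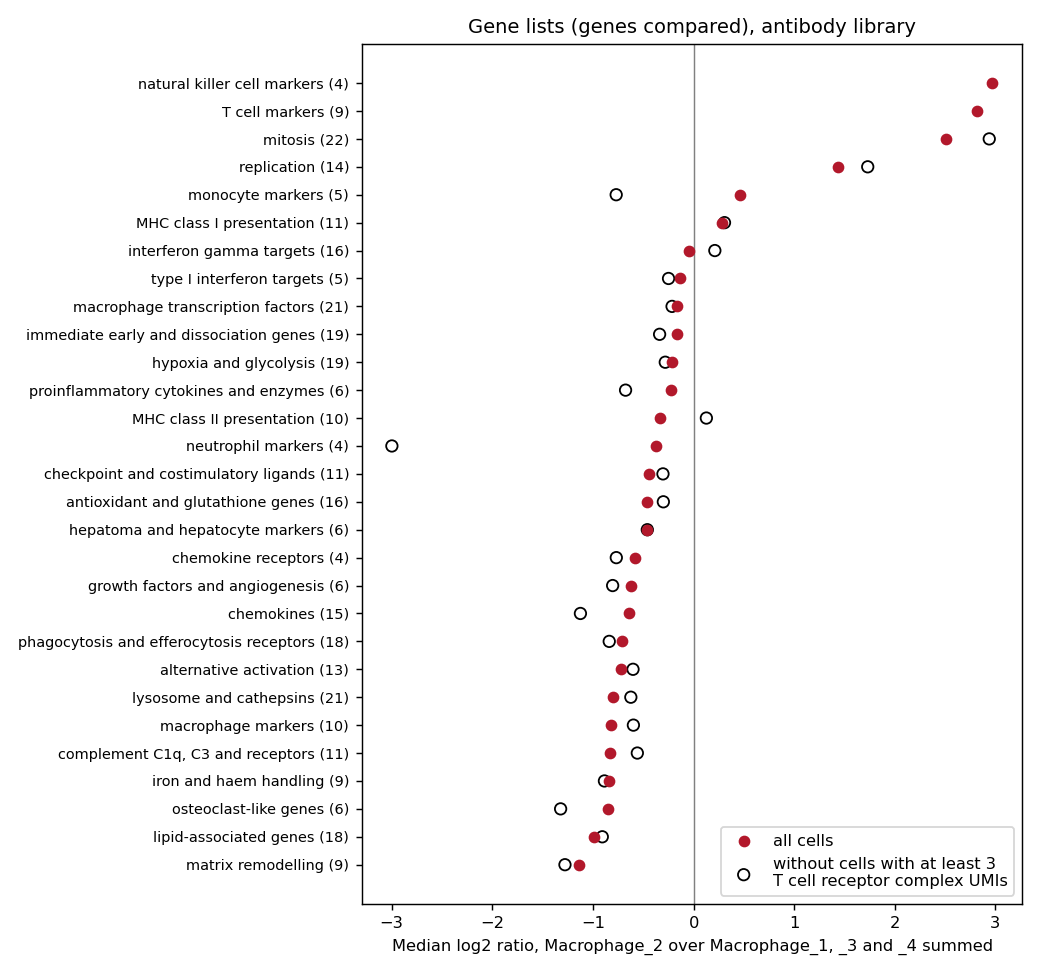
Median log2 ratio of each gene list in Macrophage_2 over Macrophage_1, Macrophage_3 and Macrophage_4 summed, in the antibody library, with the number of genes compared in all cells in parentheses; filled points use all cells and open points leave out cells with at least 3 T cell receptor complex UMIs on both sides. Mitosis and replication stay high without these cells, at 2.94 and 1.73, and lysosome, lipid-associated and matrix genes stay low.

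The 3 other macrophage clusters differed from Macrophage_2 in different ways. Against Macrophage_1, 270 of 3201 genes (8.43%) were at least 2-fold higher and 125 (3.91%) at least 2-fold lower. Ctsk (cathepsin K, the bone-resorbing protease) had 1 UMI in Macrophage_2, 0.571 CPM, against 71.0 CPM in Macrophage_1, a ratio of 0.00805 (0.000202 to 0.0459). Gpnmb, Mfge8, Mmp13 and H2-M2 had ratios of 0.104, 0.122, 0.281 and 0.204 to Macrophage_1. Higher were Hist1h1b with a ratio of 31.3 (21.5 to 47.3) and Ifng with 223 (39.6 to 8828), the second over 1 UMI in Macrophage_1. Against Macrophage_3, 281 of 3344 genes (8.4%) were at least 2-fold higher and 300 (8.97%) at least 2-fold lower. Genes often used as marks of tissue-resident macrophages were far lower here. Folr2 (a folate receptor) had 19.4 CPM in Macrophage_2, against 373 CPM in Macrophage_3, a ratio of 0.0521 (0.0352 to 0.0750). Lyve1 (a hyaluronan receptor) had 12.6 CPM in Macrophage_2, against 285 CPM in Macrophage_3. Cd163 (the haemoglobin scavenger receptor) had 3.43 CPM in Macrophage_2, against 139 CPM in Macrophage_3. The scavenger receptor Marco and the endothelin receptor Ednrb had ratios of 0.0352 (0.0156 to 0.0699) and 0.0273 (0.0150 to 0.0462). Within Macrophage_2, Folr2 had 34 UMIs in the 88 cells with at least 3 receptor complex UMIs and 0 in the 65 cells without any. In the same order, Lyve1 had 21 and 1, Cd163 6 and 0, Marco 8 and 1, and Ednrb 13 and 0. Nusap1 and Cenpf were higher in Macrophage_2 than in Macrophage_3, with ratios of 22.0 (8.50 to 81.5) and 10.9 (5.84 to 22.9). Higher genes were 48.4% of the genes past 2-fold against Macrophage_3, and 59.4% when ribosomal and mitochondrial genes were left out of the totals.

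Against Macrophage_4, 504 of 3239 genes (15.6%) were at least 2-fold higher and 106 (3.27%) at least 2-fold lower, and the median log2 ratio was 0.20. Higher genes were 82.6% of those past 2-fold, and 65.6% when ratios were divided by their median. Macrophage_4 held 132337 UMIs in all, against 1750175 in Macrophage_2. Hepatoma and hepatocyte markers summed to 1186 CPM in Macrophage_2 and 3876 CPM in Macrophage_4, and all 12 had UMIs in Macrophage_2. Alpha-fetoprotein (Afp), a hepatoma product, had a ratio of 0.251 (0.205 to 0.309), albumin (Alb) 0.304 (0.242 to 0.386) and the keratin gene Krt8 0.246 (0.163 to 0.381). Lars2, a mitochondrial leucyl-tRNA synthetase, was lowest at 0.148 (0.132 to 0.167). Incenp, of the complex that steers chromosome segregation, was higher at 19.4 (3.44 to 768), as was Nkg7 at 8.18 (3.74 to 22.4). The Incenp interval is this wide because Macrophage_4 held few of its UMIs. The part of hepatoma transcripts and of depth in this comparison was not tested.

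Against the DC cluster, 284 of 3181 genes (8.93%) were at least 2-fold higher and 134 (4.21%) at least 2-fold lower. Of 10 macrophage markers 5 were at least 2-fold higher and 0 lower, with a median log2 ratio of 0.98 beside 0.09 over all genes. Monocyte markers were mostly lower, 7 of 8 with a median of -2.58, and so were neutrophil markers, 7 of 8 with a median of -1.56. Plac8, a monocyte marker, had 299 CPM in Macrophage_2 and 1752 CPM in the DC cluster, a ratio of 0.171 (0.154 to 0.188). Chil3, of inflammatory monocytes, had 16.6 CPM in Macrophage_2 and 315 CPM in the DC cluster, a ratio of 0.0526 (0.0346 to 0.0772). The granule gene Camp had 0 UMIs in Macrophage_2 and 376 CPM in the DC cluster, at least 219.5-fold lower. Ccl22 and Ccl17, chemokines of mature dendritic cells, had ratios of 0.0534 (0.0277 to 0.0946) and 0.140 (0.108 to 0.180). Arg1 and Ccl8 were higher than in the DC cluster, with ratios of 10.4 (6.71 to 17.0) and 6.13 (4.83 to 7.90), as were Pf4 at 6.44 (4.84 to 8.75) and Top2a at 13.9 (9.95 to 19.9). Of the dendritic cell markers 2 were compared with the DC cluster, and 1 was at least 2-fold lower. Across 7682 genes within this library, the profile of Macrophage_2 had a Pearson correlation of 0.917 with the DC cluster, 0.915 with Macrophage_1, 0.898 with Macrophage_3, 0.887 with Macrophage_4 and 0.831 with CD8_T_1. Genes are not independent, and the correlations are a description.

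The share of Macrophage_2 cells was compared between the treatments. Macrophage_2 cells were 2.88% (2.46% to 3.36%) of all 5482 cells in the antibody library, against 1.54% (1.24% to 1.90%) of 5765 in the IgG library, a ratio of 1.87 (1.43 to 2.45). The immune clusters made up 2022 of 5482 cells in the antibody library and 1141 of 5765 in the IgG library, and the libraries mix bead-enriched with unsorted cells, so the share of all cells moves with the immune fraction. Macrophage_2 cells were 7.81% (6.68% to 9.07%) of 2022 immune cells in the antibody library, against 7.80% (6.31% to 9.51%) of 1141 in the IgG library, a ratio of 1.00 (0.768 to 1.31). As a share of macrophages they were 29.7% (25.8% to 33.8%) of 532 macrophages in the antibody library, against 23.7% (19.5% to 28.3%) of 376 in the IgG library, a ratio of 1.25 (0.962 to 1.65). The interval of the ratio excluded 1 only for the share of all cells. Spread between mice cannot be seen with 1 library per group, so treatment and library cannot be told apart. Nor does a share tell a change in Macrophage_2 from a change in the cells it is divided by.

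Of the 105 genes shared between the libraries, 81 had UMIs in Macrophage_2 and 42 had at least 50 over both libraries. None of the 42 had an interval above or below 1 (0% in each direction). Their antibody over IgG ratios ran between 0.666 and 1.52, with a median log2 ratio of -0.03, beside -0.02 in the other macrophages. Mcm3, a replication gene, had 119 CPM in the antibody library, against 121 CPM in the IgG library, a ratio of 0.980 (0.768 to 1.26). Rpl7, a ribosomal protein gene, had 1663 CPM in the antibody library, against 1685 CPM in the IgG library, a ratio of 0.987 (0.925 to 1.05). Cox5b, a subunit of cytochrome oxidase, had 621 CPM in the antibody library, against 632 CPM in the IgG library, a ratio of 0.983 (0.884 to 1.09), and Ptpn18, a phosphatase, had 378 CPM in the antibody library, against 421 CPM in the IgG library, a ratio of 0.898 (0.787 to 1.03). For genes with fewer UMIs the interval is wide, for example 0.841 to 2.93 for Actr1b.

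**Figure D5:**
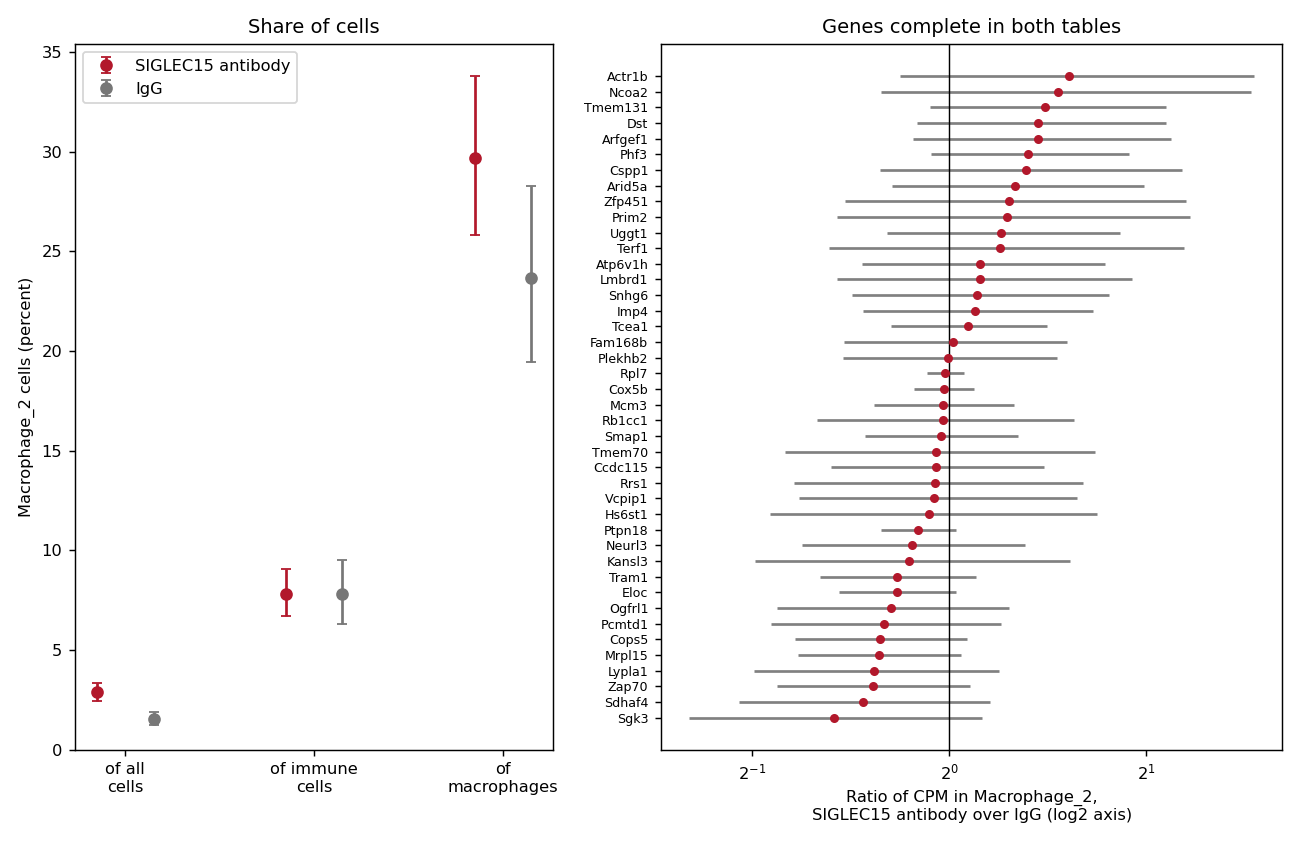
Left, Macrophage_2 cells as a percentage of all cells, of immune cells and of macrophages in the antibody library (red) and the IgG library (grey), with exact 95% intervals; right, ratio of CPM in Macrophage_2, antibody over IgG on a log2 axis, of the 42 shared genes compared, with exact 95% intervals. The share of all cells is 2.88% against 1.54%, and every interval on the right contains 1.

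A few of the shared genes belong to the T cell and replication groups described above, and can be followed in the IgG library. Zap70, the kinase of the T cell receptor, was singled out after its values were seen, as were Mcm3 and Prim2 as genes of replication, and Dst and Actr1b. In Macrophage_2, Zap70 had 54.3 CPM in the antibody library, against 71.0 CPM in the IgG library, a ratio of 0.764 (0.546 to 1.08). Its ratio to the other macrophages of the same library was 6.48 (3.89 to 11.4) in the antibody library and 8.67 (4.69 to 17.2) in the IgG library. A UMI of Zap70 was found in 52 of 158 Macrophage_2 cells of the antibody library (32.9%, 5.14% thinned) and in 37 of 89 of the IgG library (41.6%, 7.60% thinned). In CD8_T_1 the shares in the antibody and IgG libraries were 59.1% (15.2% thinned) and 53.1% (13.3% thinned), and in Macrophage_1 2.25% (0.268% thinned) and 1.03% (0.157% thinned). In Tumor_3, which should lack it, they were 0.971% and 0.190% (0.0530% and 0.0107% thinned), at median depths of 20662.5 and 19503 UMIs, against 10587.5 and 8102 in Macrophage_2. In both libraries the share in Macrophage_2 lay above those in Macrophage_1 and Tumor_3 and below that in CD8_T_1.

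Of replication genes, Mcm3 was higher in Macrophage_2 than in the other macrophages summed in both libraries. Mcm3 in Macrophage_2 over the other macrophages had a ratio of 1.93 (1.55 to 2.42) in the antibody library and 1.67 (1.27 to 2.21) in the IgG library. Macrophage_1 lay nearest in the IgG library, where Mcm3 had 121 CPM in Macrophage_2, 93.8 CPM in Macrophage_1, 52.8 CPM in Macrophage_3 and 46.5 CPM in Macrophage_4. The thinned share of cells there was 10.3% in Macrophage_2 and 8.90% in Macrophage_1. Prim2, a subunit of the primase that starts new DNA strands, had a ratio of 2.15 (1.27 to 3.71) in the antibody library and 1.94 (0.910 to 4.15) in the IgG library, so the IgG interval contains 1. Dst, a cytoskeletal linker gene, was lower at 0.587 (0.450 to 0.761) in the antibody library and 0.466 (0.302 to 0.699) in the IgG library. Of the 42 genes, 14 had an interval that excludes 1 in the antibody library, where 32.4% of all genes compared were higher and 23.9% lower by this rule. In the IgG library 7 of the 42 did, all among these 14 and on the same side.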

How the data were processed

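Single-cell 3' libraries of 2 groups were measured, and the submitters' processing notes name Cell Ranger 2.1.1 as the counter. Genome build, cell filters and the method of clustering: not given in the sources used here. The authors deposited, per library, cell lists with cluster names and a matrix of natural log values, ln(1 + 10000 × UMIs / depth), a form that was checked on the values. Whole UMI counts were recovered within a tolerance of 0.001, 74168827 UMIs over 18685 genes in the antibody library with 553 to 46558 per cell. Of the IgG matrix, 105 genes had complete values here and the rest was not used. Depth was recovered from these genes in both libraries. In the antibody library it equalled the true depth in 5440 of 5482 cells, differed in 8 and was not given in 34, and 26 of 5765 IgG cells had none. All Macrophage_2 cells had a depth, and the other cells without one were left out of ratios between libraries and kept in shares.

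The cluster names are the authors'. Immune cells and macrophages as denominators are sums of the authors' clusters. UMIs were summed per cluster, and ratios have exact conditional 95% intervals, shares exact Clopper-Pearson ones. Log2 ratios of lists had a prior count of 0.5, and a list median covers only the genes compared. Thinned shares are expected values at 1000 UMIs per cell. Profiles were correlated as log2 CPM with 10 added. Doublets were scored with scrublet in scanpy 1.11.5. Other steps used Python 3.11.15, numpy 2.4.6, pandas 2.3.3, scipy 1.17.1 and matplotlib 3.10.9, and were tested on simulated data. Positions came from GENCODE M21 by symbol.

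Macrophage_2, the 36 gene lists, 12 of them of cell type markers, and the rules were chosen with earlier results of these data known. The text names, by rule, up to 15 genes per direction against the 3 other macrophage clusters and up to 8 against each cluster, by the interval bound farthest from 1, without ribosomal, mitochondrial, haemoglobin, immunoglobulin, T cell receptor and unnamed genes. Added to these were, in each list, up to 4 genes of highest level and those past 2-fold, the cell type markers, and the shared genes with most UMIs. Cst3, Napsa, Penk, Cd8b1 and Zap70 were named after their values were seen, as were the 10 leading genes. Alternatives were other depth minimums, weights, scalings, filters and thinning depths, and leaving out cells with T cell receptor transcripts or clusters.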

Additional observations from a re-analysis of the deposited data

How the results depend on the processing

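Of 241 values recomputed under an alternative, 175 stayed within the error or within 1.5 times the count, 61 moved and 5 lay on the other side of no difference. Among named genes these numbers were 54, 34 and 2 of 90, and among list medians with at least 3 genes compared 54, 2 and 3 of 59. Leaving out predicted doublets is not counted, since 0 of them lay in the clusters compared and it could change nothing. The 5 came from leaving out cells with at least 3 T cell receptor complex UMIs, an alternative chosen after seeing the data. Without these cells the median log2 ratio was -0.77 for monocyte markers, 0.13 for MHC class II and 0.21 for interferon gamma targets. The ratio was 0.224 (0.00524 to 1.51) for Ccl1, from 1 UMI, and 0 (0 to 6.5034) for Xcl1, from 0 UMIs, and both intervals reach above 1, so neither shows an opposite direction. Spi1 and Cd74, not among the 5, also lay on the other side of 1 without these cells, as given above. T cell markers then left only Il7r to compare. Under a depth minimum of 1000 or 2000 UMIs and without MDSC_5 and Unknown, the antibody over IgG ratio of the share stayed between 1.86 and 2.00 for all cells, 0.985 and 1.10 for immune cells and 1.22 and 1.25 for macrophages.

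The filter moved every count against a single cluster. With at least 10 UMIs and no CPM minimum, the numbers of genes at least 2-fold higher and lower were 1457 and 509 against Macrophage_1, 1366 and 865 against Macrophage_3, 2658 and 659 against Macrophage_4, 1128 and 636 against the 3 summed, and 1580 and 499 against the DC cluster. Without ribosomal and mitochondrial genes in the total, 432 were higher than in Macrophage_3 and 765 than in Macrophage_4. Against Macrophage_4 the numbers were 929 and 279 with cells of at least 2000 UMIs, 188 lower with ratios divided by their median, and 44 lower without the cells with receptor transcripts. Genes lower than in each of the 3 clusters numbered 6 at 2000 UMIs, 6 without the cells with receptor transcripts and 34 without Macrophage_4. Thinned to 500 UMIs, the shares were 34.0% for the receptor complex, 72.0% for C1q, 17.2% for Mki67 and 23.4% for Top2a; thinned to 2000 they were 48.4% for Mki67 and 59.7% for Top2a. Thinned to fewer UMIs, fewer cells keep 1 by construction, and the cause of the other moves was not tested. No paired analysis was possible because each group has 1 library. Depth limits Macrophage_4 and the less abundant shared genes most.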

Other observations

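Regulatory genes of T cells lay in the same Macrophage_2 cells as the receptor transcripts. Pdcd1, which codes for the checkpoint receptor PD-1, had 142 CPM in the 88 cells with at least 3 receptor complex UMIs and 1.55 CPM in the 65 cells with 0, and its ratio to CD8_T_1 was 0.594 (0.487 to 0.722). Tox, a transcription factor of exhausted T cells, had 102 CPM in the 88 cells and 0 CPM in the 65, with a ratio to CD8_T_1 of 0.717 (0.562 to 0.909). Ctla4, a checkpoint receptor, had a ratio of 0.856 (0.657 to 1.11) and Tnfrsf9 (4-1BB), a costimulatory receptor, one of 0.628 (0.496 to 0.792). Havcr2 (TIM-3), which myeloid cells also transcribe, had 64.2 CPM in the 88 cells and 43.5 CPM in the 65, so it was found in both. Lag3 likewise had 114 CPM in the 88 cells and 60.5 CPM in the 65. These genes were chosen after their values were seen.

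Single inflammatory genes differed between the same cells in both directions. Il1b, the gene of interleukin 1 beta, had 472 CPM in the cells with receptor transcripts and 183 CPM in the cells with 0, a ratio of 2.58 (2.1026 to 3.18). S100a8, the partner of S100a9, had 556 CPM in the 88 cells and 63.7 CPM in the 65, a ratio of 8.74 (6.36 to 12.3), and F13a1, a transglutaminase gene of monocytes, had 111 CPM in the 88 cells and 7.76 CPM in the 65. These 3 were higher in the cells with receptor transcripts, where neutrophil markers also summed to 1779 CPM, against 299.6 CPM in the 65. Cxcl10 was lower, with a ratio of 0.657 (0.554 to 0.780), and the interval of Il1rn, which codes for an inhibitor of interleukin 1, contained 1 at 1.20 (0.891 to 1.63). Wdfy4, which dendritic cells need for cross-presentation, ran the other way, with 24.0 CPM in the 88 cells and 96.3 CPM in the 65, a ratio of 0.249 (0.150 to 0.402). Within Macrophage_2, receptor complex and C1q UMIs per 10000 had a Spearman correlation of -0.17 over 158 cells of 1 library. Both measures are divided by the depth of the same cell.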
